A study of Mus musculus with 9 samples.

Results

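RNA levels of 10 genes of prostaglandin synthesis, breakdown and reception were compared between mouse cardiac fibroblasts in culture with a knockdown of Gata4 or of Tbx20 and their controls. Both targets encode transcription factors of heart development. The 10 genes are Pla2g4a, Ptgs1, Ptgs2, Ptges, Ptges2, Ptgis, Hpgd, Ptger2, Ptger4 and Ptgfr. They were found by symbol among the 38924 genes of the count table, and all 10 were present. The set was chosen by measured values, since Ptgs1 and Ptgs2 had opposite signs of change in the 2 knockdowns. The changes of those 2 genes are therefore a description and carry no test. The other 8 members were open to a test, where their counts allowed one.

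All cells were primary cardiac fibroblasts from adult mice of 8 to 10 weeks on a C57BL/6 background that carry Cas9 and a green fluorescent protein. The study's methods name male mice and the line ROSA Cas9-EGFP, so the control cells carry the nuclease too. After 3 days of culture, cells positive for CD90 and negative for CD45 (blood cells) and CD31 (endothelium) were sorted. They were replated, and transfected 6 days later at 80 to 90% confluency. The study's methods place RNA isolation days after the transfection, following a change of medium. Control cells received scrambled guide RNAs, and Gata4 KD and Tbx20 KD cells each received 2 guide RNAs to the gene named. Each group had 3 libraries, named a, b and c, and the pools of transfected cells were not single clones. The study describes the replicates as biological without tying a letter to an animal, so p-values measure the spread between these libraries.

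Prostaglandins are short-lived lipid signals. Cytosolic phospholipase A2 frees arachidonic acid from membranes, the cyclooxygenases turn it into prostaglandin H2, and terminal synthases turn that into prostaglandin E2, prostacyclin and others. These act through G protein-coupled receptors on the same or nearby cells, and 15-hydroxyprostaglandin dehydrogenase inactivates them. In the heart, fibroblasts are one source of prostacyclin and prostaglandin E2, and both are known to limit fibroblast activation by raising cyclic AMP.

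The sequences before the 2 cyclooxygenase genes and before the inner start of the phospholipase gene are shown, since the knockdowns targeted DNA-binding factors. These 3 genes had their highest levels in Gata4 KD a and b, but so did Ptges and Hpgd. Promoter sequences came from RefSeq on GRCm38.p6, where 9 of the 10 genes matched, with 10 windows in all. Each run starts 250 bases before the annotated start and ends 25 bases after it. Capitals mark matches, on either strand, to GATA words (AGATAA and its variant ending in G, or TGATAA and its variant ending in G), to the T-box half-site GGTGTGA or to the cyclic AMP response half-site TGACGT. The coordinates are chr2:36230176-36230450 on the plus strand for Ptgs1, chr1:150099781-150100055 on the plus strand for Ptgs2 and chr1:149922415-149922689 on the minus strand for Pla2g4a.
Ptgs1: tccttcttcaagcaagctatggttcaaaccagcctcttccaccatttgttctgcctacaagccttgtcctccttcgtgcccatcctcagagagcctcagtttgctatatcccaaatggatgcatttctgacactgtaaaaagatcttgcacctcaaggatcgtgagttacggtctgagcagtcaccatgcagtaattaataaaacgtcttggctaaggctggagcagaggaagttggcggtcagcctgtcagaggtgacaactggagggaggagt
Ptgs2: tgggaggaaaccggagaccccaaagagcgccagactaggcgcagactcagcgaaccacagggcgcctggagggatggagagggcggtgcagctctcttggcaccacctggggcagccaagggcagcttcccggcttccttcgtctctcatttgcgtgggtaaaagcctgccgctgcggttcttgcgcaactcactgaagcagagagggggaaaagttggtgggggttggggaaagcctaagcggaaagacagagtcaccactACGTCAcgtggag
Pla2g4a, inner start: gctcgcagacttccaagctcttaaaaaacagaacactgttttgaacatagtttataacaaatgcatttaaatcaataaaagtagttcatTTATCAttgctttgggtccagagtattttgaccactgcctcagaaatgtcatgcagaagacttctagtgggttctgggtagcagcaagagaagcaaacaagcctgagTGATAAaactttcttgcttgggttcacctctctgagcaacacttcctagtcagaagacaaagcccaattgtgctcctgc
The run of Ptgs2 holds 1 match, the cyclic AMP half-site on the reverse strand, whose first base is 13 bases after the start. The run at the inner start of Pla2g4a holds 2 GATA words, beginning 161 and 54 bases before that start. The outer start, at chr1:149961290 where the annotated gene begins, is not printed and holds no match. Which start these cells use, and whether GATA4 binds there, was not tested. The run of Ptgs1 holds no match, nor do the windows of Ptges and Hpgd, which are not printed. Over windows of 300 bases, 29.8% of all 32851 promoters held a GATA word, 3.98% a T-box half-site and 7.51% the cyclic AMP half-site. Among the 10 windows of these genes, 2 held a GATA word (Pla2g4a and Ptger2), 0 a T-box half-site and 1 the cyclic AMP half-site.

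Ptgs2 and Pla2g4a are neighbours. On GRCm38, Ptgs2 (ENSMUSG00000032487) lies at chr1:150100031-150108227 on the plus strand and Pla2g4a (ENSMUSG00000056220) at chr1:149829618-149961290 on the minus strand. They point away from each other, with 138.7 kb between their starts and 1 annotated gene, Ptgs2os, in between. Ptgs1 (ENSMUSG00000047250) lies at chr2:36230426-36252272 on the plus strand, on the same chromosome as Ptges (chr2:30889471-30929863), Ptges2 (chr2:32395896-32405772) and Ptgis (chr2:167191805-167240604). Hpgd lies at chr8:56294585-56321043, Ptger2 at chr14:44988195-45003820, Ptger4 at chr15:5206661-5244187 and Ptgfr at chr3:151796502-151837630.

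Total counts were between 31214828 and 41950397 per library. Gata4 was at 47.2 to 65.2 CPM (counts scaled to library size over the 9 libraries) in Gata4 KD and at 156 to 166 CPM in control (log2 fold change -1.55, edgeR adjusted p 0.00272). Tbx20 was at 321 to 429 CPM in Tbx20 KD and at 714 to 1288 CPM in control, without overlap, but the adjusted p was 0.748 (log2 fold change -1.35). In the other knockdown, Gata4 was at 178 to 199 CPM in Tbx20 KD, above control without overlap, beside 6.96% of all genes without overlap in either direction. Tbx20 was at 518 to 904 CPM in Gata4 KD, with a lower mean than control (697 against 1001 CPM) but with overlap. The fibroblast markers (9 of 9 detected) summed to 13694 to 15557 CPM in control, 10156 to 14152 CPM in Gata4 KD and 13390 to 16279 CPM in Tbx20 KD, with Gata4 KD a and b below all other libraries. Col1a1, Col1a2, Col3a1 and Vim were the most abundant of this list. In Gata4 KD against control, 7 of the 9 had a negative log2 fold change and 2 a positive one. None was called, and 3 were lower without overlap, beside 14% of all genes in either direction. These were Tcf21 (89.0 to 156 CPM in Gata4 KD and 167 to 202 CPM in control), Col1a1 (2698 to 3686 and 3949 to 4033 CPM) and Vim (2332 to 2470 and 2636 to 2852 CPM). Pdgfra was at 517 to 664 CPM in Gata4 KD and 381 to 529 CPM in control, and Thy1 at 83.3 to 99.9 and 82.2 to 109.8 CPM. Markers of macrophages (10 of 10 detected) summed to 27.3 to 74.6 CPM, of endothelium (8 of 8) to 41.1 to 61.0 CPM and of mural cells (7 of 7) to 21.8 to 41.7 CPM, with overlapping groups. Within the endothelial list Kdr, a receptor for vascular endothelial growth factor, was at 5.04 to 6.25 CPM in Gata4 KD, 2.27 to 3.50 CPM in control and 2.68 to 3.23 CPM in Tbx20 KD, and was called against Tbx20 KD (log2 fold change 0.90, adjusted p 0.0258) but not against control (0.97, adjusted p 0.0996). That call was lost without Gata4 KD a or b or any 1 of the Tbx20 KD libraries (adjusted p 0.0528 to 0.142). The sum of mesothelial and epicardial markers (8 of the 9 listed were in the table, and 8 detected) was 9.63 to 17.5 CPM in Gata4 KD, below the 26.9 to 49.8 CPM of control and the 28.0 to 45.0 CPM of Tbx20 KD. Lrrn4 made up most of this gap, at 2.11 to 2.73 CPM in Gata4 KD and 15.8 to 32.2 CPM in control. It was called lower against control (log2 fold change -3.38, edgeR adjusted p 0.00272) and against Tbx20 KD (-3.42, adjusted p 0.000961). Both calls held in every other setting used and without any 1 library. The sum of the other 7 overlapped (7.32 to 15.4 CPM in Gata4 KD, 11.05 to 17.6 CPM in control). Of the 6 tested, 4 were lower than control without overlap (Lrrn4, Upk3b, Upk1b and Gpm6a), beside 14% of all genes. Upk3b was at 0.61 to 1.10 CPM in Gata4 KD and 1.64 to 3.88 CPM in control. Upk1b was at 1.32 to 1.72 and 2.15 to 4.37 CPM, and Gpm6a at 0.195 to 0.251 and 0.478 to 1.13 CPM. Against control the main fit called Lrrn4 alone, and against Tbx20 KD Gpm6a too (adjusted p 0.0225, 0.0512 to 0.119 without Gata4 KD a or b or 1 Tbx20 KD library). The other 2 tested, Krt19 and Wt1, had higher means in Gata4 KD, with adjusted p of 0.842 and 0.941. The part of these marker differences in the results was not tested. In bulk RNA, fewer cells of a type and less RNA per cell cannot be told apart.

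Some libraries stood apart within every group. Lum, the gene of the matrix proteoglycan lumican, was at 0.97, 3.56 and 0.63 CPM in control a, b and c, at 1.16, 0.53 and 4.02 CPM in Gata4 KD and at 0.74, 2.67 and 3.23 CPM in Tbx20 KD. It was picked after its values were seen. Control b, Gata4 KD c and Tbx20 KD b and c were thus the libraries with high Lum, and the same 4 had the 4 highest levels of Dcn, another matrix proteoglycan gene (177 to 200.4 CPM against 93.8 to 151 CPM in the other 5). The values of the prostaglandin genes are given library by library for this reason.

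Compared per kilobase of their longest transcript, the prostacyclin synthase and cyclooxygenase-2 genes had the highest levels of the 10 in control cells. Ptgis stood at 85.5 ± 11.8 CPM per kilobase (SD, n = 3) and Ptgs2 at 65.6 ± 6.31, followed by Pla2g4a at 38.3 ± 2.07 and Ptgs1 at 36.4 ± 7.42. The ranges of Pla2g4a and Ptgs1 overlapped, and those of Ptgis and Ptgs2 did not. Ptger4 came next at 10.3 ± 0.78 CPM per kilobase, and Ptges2, Hpgd and Ptges lay at 2.99 ± 0.36, 2.14 ± 0.12 and 0.985 ± 0.12, with no overlap between neighbours in this order. Ptger2 and Ptgfr, at 0.062 and 0.051 CPM per kilobase, overlapped each other. Among 20543 genes with a level in control, Ptgis stood at the 96.5th percentile, Ptgs2 at the 95.3rd and Ptgfr at the 22.2nd. In Gata4 KD the means stood in another order, with Ptgs2 at 153 ± 85.5, Ptgs1 at 101 ± 25.2, Ptgis at 61.5 ± 5.88 and Pla2g4a at 55.7 ± 13.9 CPM per kilobase, and the ranges of Ptgs2 and Ptgs1 overlapped.

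**Figure D1:**
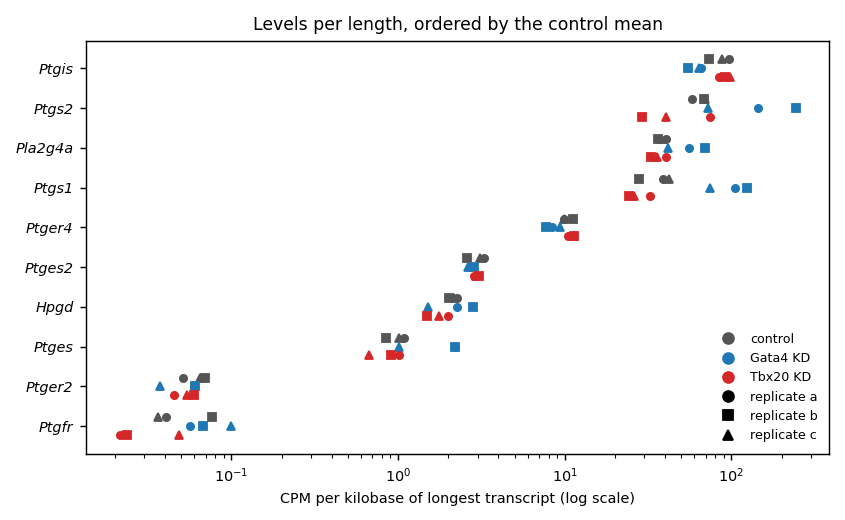
Level of each prostaglandin gene in CPM per kilobase of its longest transcript (horizontal log axis), with 1 point per library, coloured by group, genes ordered by the control mean. Ptgis, Ptgs2, Pla2g4a and Ptgs1 lay above 20 CPM per kilobase in all 9 libraries, and Ptger2 and Ptgfr below 0.1.

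The gene of the first step of the pathway was higher in Gata4 KD without overlap but did not pass the test. Pla2g4a, which encodes cytosolic phospholipase A2 alpha, was at 139.8, 125.5 and 131 CPM in control a, b and c, at 192, 241 and 145 CPM in Gata4 KD, and at 139.7, 113 and 123 CPM in Tbx20 KD. All 3 Gata4 KD libraries lay above all controls, with c nearest to them, while Tbx20 KD and control overlapped. The log2 fold change was 0.54 (SE 0.16, adjusted p 0.329) in Gata4 KD against control and -0.07 (SE 0.09, adjusted p 1.0) in Tbx20 KD against control.

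Ptgs1 encodes cyclooxygenase-1, the form that most tissues make steadily. It was at 111, 80.4 and 121 CPM in control, at 299.8, 357 and 214 CPM in Gata4 KD, and at 93.2, 69.5 and 74.3 CPM in Tbx20 KD. Every Gata4 KD library was above every library of the other groups, with means of 290.4 ± 72.2 CPM in Gata4 KD and 104 ± 21.3 CPM in control (SD, n = 3 each), a log2 fold change of 1.47 (SE 0.21). In Tbx20 KD the mean was 79.0 ± 12.5 CPM (SD, n = 3), a log2 fold change of -0.40 (SE 0.16), and Tbx20 KD a lay above control b.

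Ptgs2 encodes cyclooxygenase-2, the form induced by cytokines, growth factors and injury. Its level was 259.8, 305 and 311 CPM in control, 639.9, 1081 and 324 CPM in Gata4 KD and 329, 130.2 and 182 CPM in Tbx20 KD. Gata4 KD a and b were far above the controls while c exceeded the highest control only narrowly, and Tbx20 KD a was above all 3 controls. Its log2 fold change was 1.22 (SE 0.35) in Gata4 KD against control, between 0.73 and 1.58 when a library was left out, and -0.45 (SE 0.29) in Tbx20 KD against control, between -0.90 and -0.19. The opposite directions that chose the set were therefore a matter of means for Tbx20 KD, where both genes overlapped with control. The coefficient of variation of Ptgs2 was 9.62% in control, 55.8% in Gata4 KD and 48.4% in Tbx20 KD, against 20.4%, 24.9% and 15.9% for Ptgs1.

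Ptgs2 had more reads than Ptgs1 in every library, with a longest transcript of 4453 against 2867 bases. The ratio of their CPM was 2.33, 3.80 and 2.57 in control, 2.13, 3.03 and 1.51 in Gata4 KD and 3.53, 1.87 and 2.44 in Tbx20 KD. The 3 groups overlapped in this ratio, and its lowest value was that of Gata4 KD c. Per kilobase of longest transcript, Ptgs1 was the higher gene in Gata4 KD c (ratio 0.974), and Ptgs2 was the higher in every other library.

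**Figure D2:**
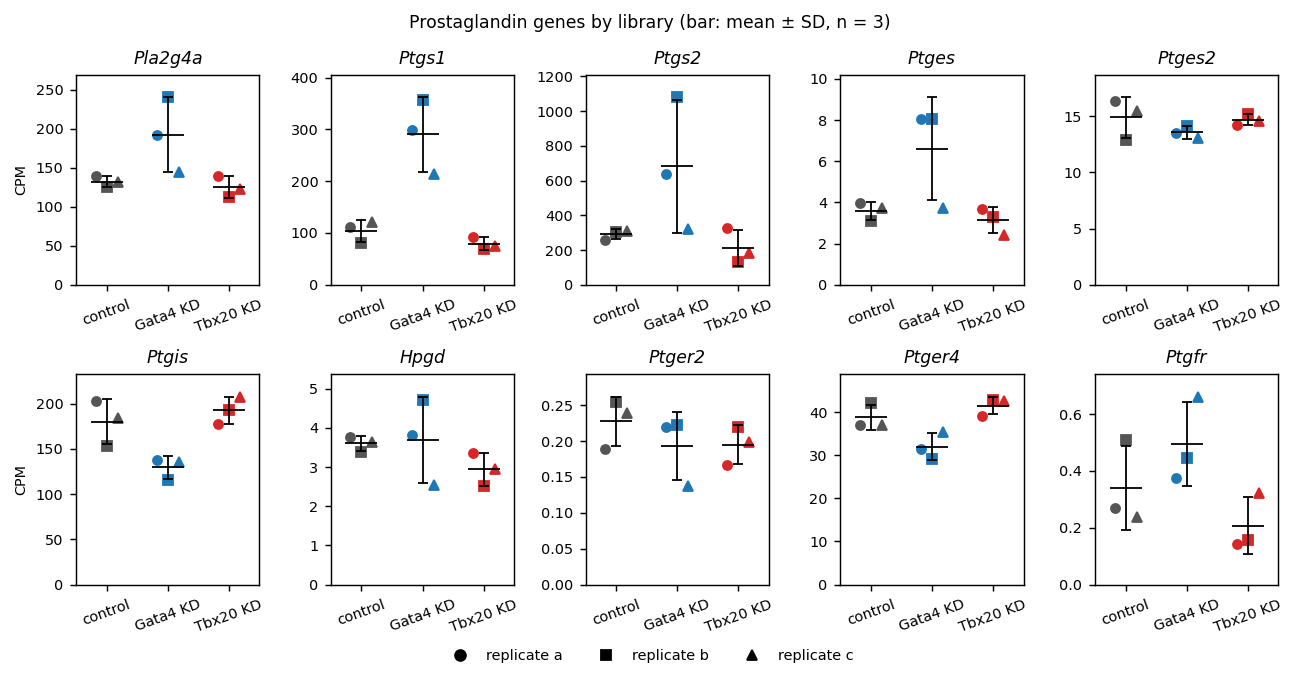
CPM of each prostaglandin gene (vertical axes, from 0, scaled per panel) in the 3 groups, with 1 point per library (circle a, square b, triangle c) and the mean ± SD in black. Gata4 KD lay above control without overlap for Pla2g4a, Ptgs1 and Ptgs2 and below it without overlap for Ptgis and Ptger4, with Gata4 KD c nearest to control for Pla2g4a, Ptgs1, Ptgs2 and Ptger4.

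The terminal synthase genes of prostaglandin E2 and prostacyclin differed in sign in Gata4 KD against control. With all 6 libraries, none of them passed edgeR's quasi-likelihood test there. Ptges encodes the inducible microsomal prostaglandin E synthase that works with cyclooxygenase-2, and was at 3.97, 3.11 and 3.71 CPM in control, 8.05, 8.06 and 3.72 CPM in Gata4 KD and 3.68, 3.30 and 2.43 CPM in Tbx20 KD. Gata4 KD a and b were high and c was within the control range. The log2 fold change of Ptges in Gata4 KD against control was 0.87 (SE 0.29, adjusted p 0.391), and without Gata4 KD c it was 1.18, with an adjusted p of 0.0345. Ptges was not called in this comparison without any other library or in any other setting (adjusted p 0.109 in DESeq2, 0.175 in the exact test). Ptges2, the membrane-associated form, was at 12.9 to 16.3 CPM in control, 13.0 to 14.1 CPM in Gata4 KD and 14.2 to 15.2 CPM in Tbx20 KD, with log2 fold changes of -0.14 (SE 0.12) and -0.02 (SE 0.11) against control.

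Ptgis encodes prostacyclin synthase, which turns prostaglandin H2 into prostacyclin. It was at 203, 154 and 184 CPM in control, 138, 115 and 135 CPM in Gata4 KD and 178, 193 and 208 CPM in Tbx20 KD. All 3 Gata4 KD libraries were below the other 6, while Tbx20 KD and control overlapped. Against control, the level in Gata4 KD was 0.717 times as high (log2 fold change -0.48, SE 0.13, adjusted p 0.240), which did not pass the test. In Gata4 KD against Tbx20 KD it was 0.674 times as high (log2 fold change -0.57, SE 0.09, adjusted p 0.0347). In the main fits by edgeR's quasi-likelihood test, none of the other members tested, Ptgs1 and Ptgs2 aside, passed in any comparison. Other settings, given further on, called some of them. The call of Ptgis was lost without Gata4 KD a (adjusted p 0.122) or b (0.0775) and without Tbx20 KD b (0.160) or c (0.159). It was also lost with all 9 libraries in one fit (0.0501) and with the replicate letter as a block (0.0578). Its log2 fold change stayed between -0.62 and -0.49 without any 1 library.

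Hpgd encodes 15-hydroxyprostaglandin dehydrogenase, the first enzyme of prostaglandin breakdown. It was low, at 3.78, 3.39 and 3.65 CPM in control, 3.82, 4.72 and 2.53 CPM in Gata4 KD and 3.37, 2.51 and 2.96 CPM in Tbx20 KD. The Tbx20 KD libraries lay below all controls, Tbx20 KD a by the least, and the log2 fold change was -0.28 (SE 0.16, adjusted p 1.0). Gata4 KD lay on both sides of the controls (log2 fold change 0.03, SE 0.23, adjusted p 0.983).

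Of the receptors, Ptger4 was the one well measured. It encodes EP4, a prostaglandin E2 receptor that raises cyclic AMP, and was at 37.1, 42.2 and 37.1 CPM in control, 31.5, 29.3 and 35.4 CPM in Gata4 KD and 39.2, 42.8 and 42.6 CPM in Tbx20 KD. Gata4 KD was below both other groups without overlap. The log2 fold change was -0.28 (SE 0.10, adjusted p 0.468) against control and -0.37 (SE 0.08, adjusted p 0.0870) against Tbx20 KD. Of its 75-base sequence windows 13.2% also occur in another gene, so its counts may carry more error than those of the other members, where the share was at most 3.81%.

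Ptger2, the gene of the EP2 receptor, which also raises cyclic AMP, had 5 to 9 counts per library (0.138 to 0.254 CPM) and did not pass the filter on low counts in any comparison. Without that filter and in DESeq2, neither of which removed it, it was not called. Ptgfr, the gene of the prostaglandin F2 alpha receptor, had 5 to 24 counts. It was at 0.270, 0.509 and 0.239 CPM in control, 0.376, 0.445 and 0.661 CPM in Gata4 KD and 0.142, 0.157 and 0.323 CPM in Tbx20 KD. It passed the filter on low counts through its Gata4 KD libraries, and the fitted change on the log2 scale was 0.54 (SE 0.40, adjusted p 0.788) in Gata4 KD against control and 1.24 (SE 0.41, adjusted p 0.191) in Gata4 KD against Tbx20 KD. Ptgfr did not overlap between the knockdowns, on counts this low, and missed the threshold there.

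**Figure D3:**
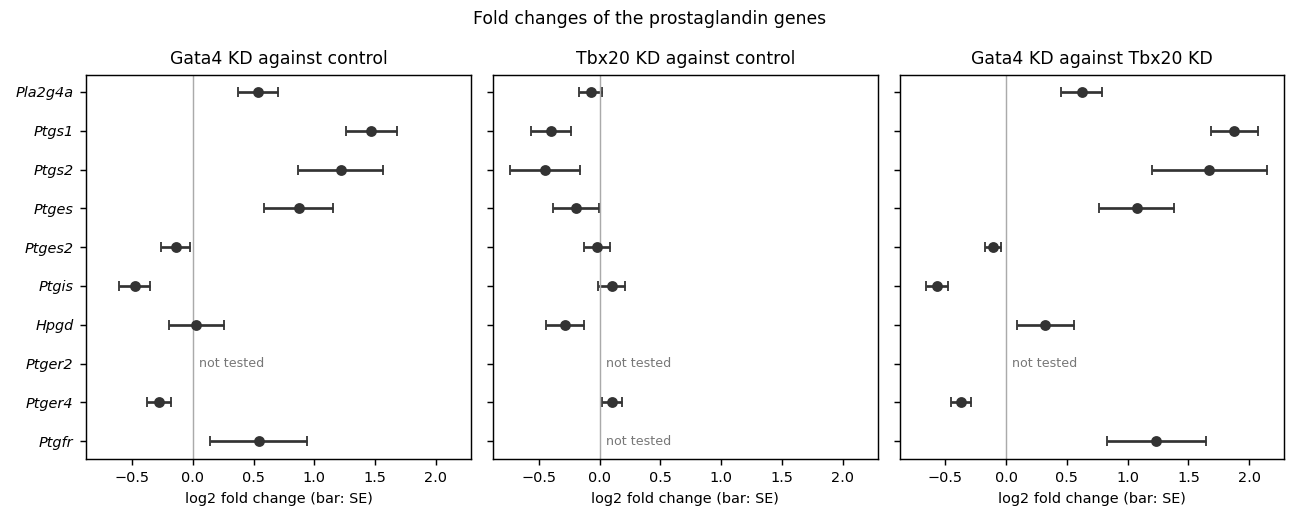
Log2 fold change (horizontal axis) of each prostaglandin gene in the 3 comparisons, with bars of 1 SE from edgeR. In Gata4 KD against Tbx20 KD the values ran from -0.57 for Ptgis to 1.88 for Ptgs1, and in Tbx20 KD against control they lay between -0.45 and 0.10.

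Counts over the set leave out Ptgs1 and Ptgs2, which the rule used. Of the 7 other members tested in Gata4 KD against control, 0 passed the threshold of 0.05 on the adjusted p by edgeR's quasi-likelihood test, beside 0.38% of all 14468 genes tested. An unadjusted p under 0.05 was reached by 4 of them (Ptges and Pla2g4a higher, Ptgis and Ptger4 lower), beside 8.54% of all genes. The groups did not overlap for 1 higher (Pla2g4a) and 2 lower (Ptgis and Ptger4), beside 14% of all genes. DESeq2 and the exact test each called 1, Ptgis. The median log2 fold change of these 7 was 0.03, beside -0.02 over all genes. Ptgfr was among the 7 only through its Gata4 KD libraries.

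In Tbx20 KD against control, 0 of the 6 members tested passed the threshold in edgeR, beside 0.00687% of all genes. An unadjusted p under 0.05 was reached by 0 of them, beside 2.69% of all genes, and DESeq2 and the exact test called 0. The groups did not overlap for 1, Hpgd, beside 6.96% of all genes. The 6 adjusted p-values were 1.0 after rounding.

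The direct comparison of the knockdowns shares its libraries with both comparisons above and is not separate evidence. Of the 7 members tested in Gata4 KD against Tbx20 KD, 1 passed, Ptgis, which was lower, beside 1.44% of all 14477 genes tested. An unadjusted p under 0.05 was reached by Ptges and Pla2g4a, which were higher, and by Ptgis and Ptger4, which were lower, beside 16.7% of all genes. The groups did not overlap for Ptges and Pla2g4a (higher) and for Ptgis, Ptger4 and Ptges2 (lower), beside 23.1% of all genes. Ptgfr is left out of both lists, since it was among the 7 tested only because its Gata4 KD libraries, where it was high, passed the filter. Ptges (log2 fold change 1.08, SE 0.31, adjusted p 0.146) and Pla2g4a (0.62, SE 0.17, adjusted p 0.136) did not overlap and missed the threshold. Ptges, Pla2g4a and Ptger4 passed it together with Ptgis in DESeq2, in the exact test, without Gata4 KD c and with a principal component covariate given further on. Ptgs1 had a log2 fold change of 1.88 (SE 0.19) and Ptgs2 of 1.67 (SE 0.47), but for Ptgs2 the groups overlapped, since Gata4 KD c, at 324 CPM, was below Tbx20 KD a, at 329 CPM.

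The libraries with high Lum had lower levels of several of these genes and higher levels of others. Ptgs1 was lowest in control b among the controls and in Gata4 KD c among the Gata4 KD libraries, and lower in Tbx20 KD b and c than in a. The same holds for Pla2g4a, Ptges and Hpgd. Ptger4 went the other way, as did Ptgfr on its 5 to 24 counts. Both were highest in control b and in Gata4 KD c within their groups, and higher in Tbx20 KD b and c than in a. Among the 4 libraries with high Lum alone, Ptgs1 was at 80.4 CPM in control, 214 CPM in Gata4 KD and 69.5 and 74.3 CPM in Tbx20 KD, and among the other 5 at 111 and 121, 299.8 and 357, and 93.2 CPM. Ptgs2 was at 305, 324, 130.2 and 182 CPM in control b, Gata4 KD c and Tbx20 KD b and c, where Gata4 KD was close to control. In the other 5 it was at 259.8 and 311 CPM in control, 639.9 and 1081 CPM in Gata4 KD and 329 CPM in Tbx20 KD, where Tbx20 KD was above control. With the main axis of variation within groups (33.8% of that variance) as a covariate over 9 libraries, the log2 fold change against control was 1.47 for Ptgs1 and 1.10 for Ptgs2 in Gata4 KD, and -0.40 and -0.56 in Tbx20 KD. What sets these libraries apart, and its part in the results, was not tested.

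**Figure D4:**
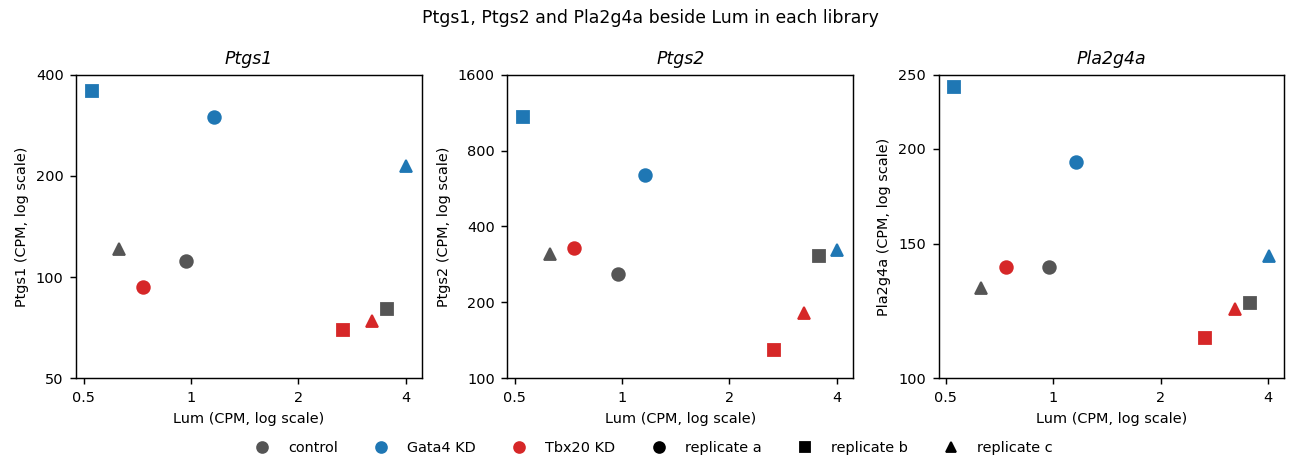
CPM of Ptgs1, Ptgs2 and Pla2g4a (vertical log axes) against CPM of Lum (horizontal log axis), with 1 point per library, coloured by group and shaped by replicate. Ptgs1 in Gata4 KD was at 214 CPM or more on both sides of the Lum axis, whereas Ptgs2 in the Gata4 KD library with high Lum was at 324 CPM, beside 305 CPM in the control with high Lum.

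The rest of the prostanoid pathway showed 1 call. Of 37 other phospholipase A2, synthase, receptor, transport and breakdown genes in the table, 22 were tested in Gata4 KD against control and 1 was called higher, 22 were tested in Tbx20 KD against control and 0 were called by edgeR, DESeq2, the exact test or limma-voom (at an unadjusted p under 0.05 edgeR had 2 higher, Ptgir and Pla2g12a, and 0 lower), and 23 were tested in Gata4 KD against Tbx20 KD and 1 was called higher. The share called over all genes was 0.38%, 0.00687% and 1.44% in these comparisons. An unadjusted p under 0.05 was reached by 2.69% of all genes in Tbx20 KD against control. Their median log2 fold change was -0.04 in Gata4 KD against control and 0.00 in Tbx20 KD against control. The call was Akr1c18, which encodes a hydroxysteroid dehydrogenase of the aldo-keto reductase family, some of whose members also reduce prostaglandins. It was at 0.54, 0.37 and 0.42 CPM in control, 2.48, 2.78 and 1.46 CPM in Gata4 KD and 0.57, 0.35 and 0.42 CPM in Tbx20 KD. Akr1c18 rose in Gata4 KD by 2.32 on the log2 scale against control (SE 0.32, adjusted p 0.0314) and by 2.30 against Tbx20 KD (SE 0.31, adjusted p 0.0225). Against control the call was lost without control a or c or Gata4 KD a or b (adjusted p 0.110 to 0.175), and against Tbx20 KD without Gata4 KD a or b or Tbx20 KD b or c (0.0783 to 0.136).

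The abundant genes of the pathway outside the set were not called in any comparison. The cytosolic prostaglandin E synthase Ptges3 was at 117 to 216 CPM and the aldose reductase Akr1b3, which can make prostaglandin F2 alpha, at 192 to 275 CPM over the 9 libraries. Ptgfrn, a membrane protein that binds the prostaglandin F2 alpha receptor, was at 126 to 166 CPM. The prostaglandin transporter Slco2a1 was at 94.5, 70.5 and 106 CPM in control, 72.6, 88.3 and 60.0 CPM in Gata4 KD and 93.4, 68.9 and 77.4 CPM in Tbx20 KD. Ptgir, the gene of the prostacyclin receptor, was at 6.29, 7.32 and 4.93 CPM in control, 7.96, 6.73 and 11.5 CPM in Gata4 KD and 6.93, 9.74 and 8.05 CPM in Tbx20 KD, with overlap in each comparison.

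Lists of genes that act beside the pathway, or are known to respond to it, were read in the same fits. Of the leukotriene and lipoxygenase genes, the other branch of arachidonic acid metabolism, 5 to 7 were tested and 0 were called in each comparison by edgeR, DESeq2, the exact test or limma-voom. An unadjusted p under 0.05 in edgeR was reached by 1 of them, Cysltr1, which was lower in Gata4 KD than in Tbx20 KD, beside 16.7% of all genes there. All 9 cyclic AMP-responsive genes had a positive log2 fold change in Gata4 KD against control (median 0.29, beside -0.02 over all genes). All 9 had a negative one in Tbx20 KD against control (median -0.10, beside -0.002 over all genes), but edgeR called 0 in either comparison. At an unadjusted p under 0.05 there were 3 in the first and 0 in the second, beside 8.54% and 2.69% of all genes. DESeq2 and the exact test called 1 in the first, Pde4d, and 0 in the second. What lies behind the shared signs was not tested. Pde4d, a phosphodiesterase that breaks down cyclic AMP, was at 18.6, 17.6 and 16.9 CPM in control, 26.4, 27.0 and 24.3 CPM in Gata4 KD and 17.1, 16.2 and 15.9 CPM in Tbx20 KD. Pde4d was higher in Gata4 KD than in Tbx20 KD (log2 fold change 0.66, SE 0.07, adjusted p 0.00690), a call lost without Gata4 KD a (0.0584) or Tbx20 KD b (0.0561) or c (0.0644).

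Of 17 immediate-early genes tested, Nr4a1, an orphan nuclear receptor, rose in Gata4 KD against control (log2 fold change 0.79, SE 0.12, adjusted p 0.0493) and was higher in Gata4 KD than in Tbx20 KD (1.23, SE 0.22, adjusted p 0.0464). It was at 19.4 to 26.3 CPM in control, 35.9 to 42.7 CPM in Gata4 KD and 11.9 to 23.5 CPM in Tbx20 KD. Fosl2, a member of the AP-1 family, was higher in Gata4 KD than in Tbx20 KD (0.51, SE 0.07, adjusted p 0.0242). Among 15 NF-kB inflammatory genes tested, the chemokine gene Cxcl5 (1.34, SE 0.15, adjusted p 0.0115) and the cytokine gene Il6 (0.42, SE 0.07, adjusted p 0.0405) were higher in Gata4 KD than in Tbx20 KD. Each of these calls was lost without some library, and over all genes 0.38% were called in Gata4 KD against control and 1.44% against Tbx20 KD. With all 9 libraries in one fit the calls of Nr4a1 against control (adjusted p 0.132) and of Il6 (0.149) were lost too, as was that of Nr4a1 against control with the principal component covariate (0.0770) and with CPM above 1 in at least 2 libraries (0.0511). With library size alone, the calls against Tbx20 KD of Nr4a1 (0.0513) and Il6 (0.0531) were lost. For Nr4a1 against control, the adjusted p without control a, control c or Gata4 KD a, b or c was 0.0980 to 0.204. Against Tbx20 KD, the calls of Nr4a1, Fosl2 and Il6 were lost without Gata4 KD a or b or Tbx20 KD b or c (0.0821 to 0.221), and that of Cxcl5 without Gata4 KD a or Tbx20 KD b or c (0.0801 to 0.0927). Over these lists together, 46 to 48 of 56 genes were tested, and the median log2 fold change was 0.09 in Gata4 KD against control, -0.13 in Tbx20 KD against control and 0.24 in Gata4 KD against Tbx20 KD, where the median of all genes was between -0.02 and 0.00.

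**Figure D5:**
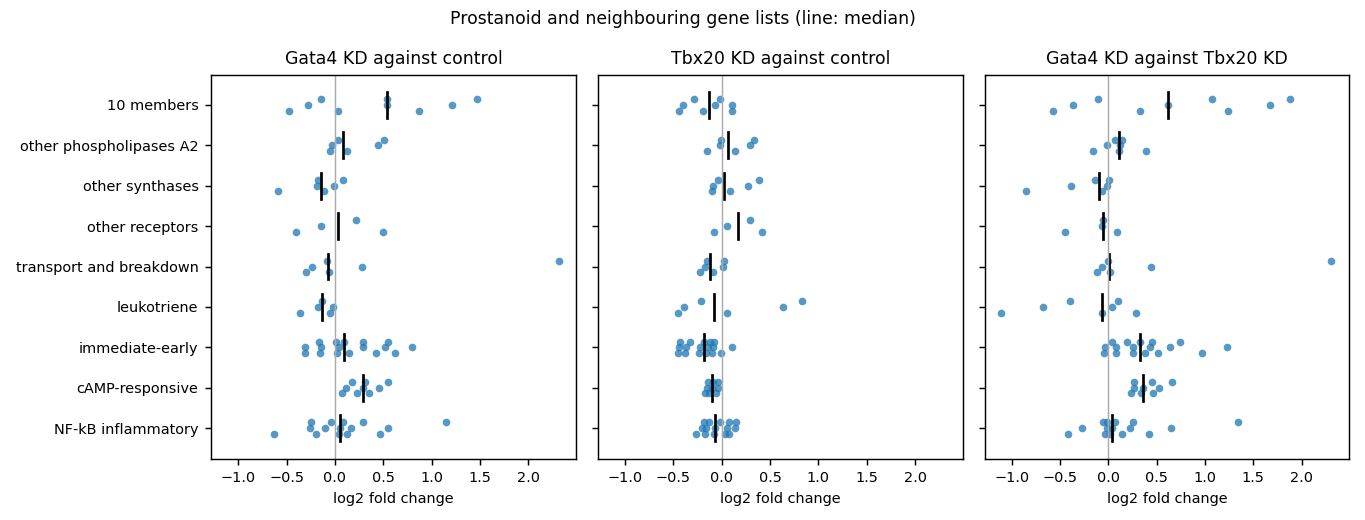
Log2 fold changes (horizontal axis) of the tested genes of each list in the 3 comparisons, with 1 point per gene and the median as a black line. The highest point outside the 10 members is Akr1c18 in both Gata4 KD comparisons, and the cyclic AMP-responsive genes lie above 0 in both and below 0 in Tbx20 KD against control.

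The genes whose log2 CPM followed Ptgs1 most closely over the 9 libraries, among 10042 genes with a mean of at least 5 CPM, were Il11 (Pearson r 0.991), Tnc (0.976), Fez2 (0.976), Egln3 (0.975) and Nqo2 (0.973). Il11, a profibrotic cytokine gene, was at 2.46 to 4.60 CPM in control, 9.22 to 17.5 CPM in Gata4 KD and 1.71 to 3.06 CPM in Tbx20 KD. Tnc, which encodes the matrix protein tenascin-C, was at 1773 to 2118, 2662 to 3291 and 1405 to 1832 CPM. Those closest to Ptgs2 were Abl2 (0.988), Nrn1 (0.988), Ercc6 (0.988), Mtmr10 (0.988) and Mast4 (0.984). Mtmr10, a myotubularin-related gene, was at 130.2 to 155 CPM in control, 156 to 242 CPM in Gata4 KD and 114 to 150.4 CPM in Tbx20 KD. The correlation of Ptgs1 with Ptgs2 was 0.887, at rank 145 among the genes closest to Ptgs1 and rank 227 among those closest to Ptgs2. These values describe 9 libraries that share groups and scaling.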

How the data were processed

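RNA from 9 libraries (KAPA mRNA HyperPrep, 75-base single-end reads) was quantified by the authors per gene with RSEM on Bowtie alignments. The study's methods name GRCm38 and the submitters' processing notes mm9, and the table holds gene IDs without coordinates. The deposited values are RSEM's expected counts, stored without decimals and without normalization. RSEM divides reads shared by several genes among them.

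GENCODE M21 on GRCm38 gave symbols and positions (37607 of 38924 IDs matched). Each comparison was fitted on its 6 libraries in R 4.3.3 with edgeR 4.0.16 (filterByExpr, TMM, quasi-likelihood F test, Benjamini-Hochberg adjustment over all genes tested, threshold 0.05). CPM was scaled by TMM over all 9 libraries, with a prior count of 2 on the log2 scale for correlations. Levels per kilobase used the longest transcript. With 3 libraries in each of 2 groups the smallest exact permutation p is 0.1, so only fits across genes were used. Alternatives used DESeq2 1.42.0 and limma 3.58.1, and are described with the limits.

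The members and lists were chosen with earlier results of these data known. Named were the 10 members, the targets, of each other pathway list the called genes and the most abundant ones, and the 5 genes most correlated with Ptgs1 and with Ptgs2 (mean of at least 5 CPM, no predicted or clone symbol); Lum, Dcn, Egr1, Cysltr1 and Ptgs2os were picked after their values were seen. The authors' own fold changes were not used.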

Additional observations from a re-analysis of the deposited data

How the results depend on the processing

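With 3 libraries a group, the number of calls depended on the test, and depth limits Ptger2 and Ptgfr. Counts over the members leave out Ptgs1 and Ptgs2, which the rule used. In Gata4 KD against control, the edgeR fit called 0 of the 7 tested, beside 0.38% of all genes. DESeq2 and the exact test with tagwise dispersion each called 1, and leaving out 1 library gave 0 to 1. The added principal component covariate, which was chosen after seeing the data, gave 1 (Ptger4). In Gata4 KD against Tbx20 KD, the edgeR fit called 1 (Ptgis), beside 1.44% of all genes. DESeq2 and the exact test each called 4, all 9 libraries in one fit 0, and the covariate 4. Leaving out 1 library gave 0 to 4. Of the other prostanoid genes in Gata4 KD against control, 1 was called, 0 by limma-voom and 0 to 1 without 1 library, and in Gata4 KD against Tbx20 KD, 1 was called, 2 with the covariate and 0 to 2 without 1 library. Of the neighbouring lists in Gata4 KD against control, 1 was called, 5 by DESeq2, 3 with no filter, 0 with CPM above 1 in at least 2 libraries, 5 by the exact test, 3 with all 9 libraries, 5 with the covariate and 0 to 6 without 1 library. In Gata4 KD against Tbx20 KD, 5 were called, 3 with library size alone, 11 by DESeq2, 11 by the exact test and 0 to 11 without 1 library. The cause of these differences was not tested.

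Of all genes in Gata4 KD against control, 55 were called, 264 by DESeq2, 121 with no filter, 250 by the exact test, 148 with all 9 libraries, 457 with the covariate and 6 to 189 without 1 library. In Tbx20 KD against control, 1 was called, 12 by DESeq2, 2 with no filter, 8 by the exact test, 5 with the covariate and 0 to 5 without 1 library. In Gata4 KD against Tbx20 KD, 208 were called, 743 by DESeq2, 324 with no filter, 729 by the exact test, 644 with the covariate and 22 to 801 without 1 library.

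The sign of Hpgd in Gata4 KD against control was turned by limma-voom (-0.016) and without 1 library (-0.18 to 0.27). In Tbx20 KD against control, leaving out 1 library gave -0.12 to 0.052 for Ptges2 and -0.0011 to 0.19 for Ptgis. Of the members' log2 fold changes without 1 library, 141 kept their direction and their side of the threshold (direction alone for Ptgs1 and Ptgs2), 5 gained the threshold, 4 lost it and 6 turned sign. Under the other settings these numbers were 216, 12, 2 and 2.

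The replicate letters were not found to pair the libraries (correlations of same-letter deviations -0.17 to 0.25). With the replicate letter as a block, and Ptgs1 and Ptgs2 left out, 0 members were called in Gata4 KD against control. The same held for the other prostanoid genes (0) and the neighbouring genes (0). In Gata4 KD against Tbx20 KD, the block called 0 of these members and 2 neighbouring genes, and Ptgis lost its call (adjusted p 0.0578). Over all genes the block gave 5, 2 and 101 calls in the 3 comparisons, and it turned Hpgd in Gata4 KD against control to -0.0057.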

Other observations

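Ptgs2os, a noncoding gene between Pla2g4a and Ptgs2, was at 1.56, 1.38 and 1.85 CPM in control, 3.35, 5.14 and 1.73 CPM in Gata4 KD and 1.97, 1.19 and 1.27 CPM in Tbx20 KD. Gata4 KD a and b were above all other libraries and c within the control range, as for Ptges, and the log2 fold change in Gata4 KD against control was 1.08 (SE 0.36, edgeR adjusted p 0.405).

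Egr1, an immediate-early transcription factor gene, was high in 1 library of each group. It was at 22.1, 89.5 and 23.4 CPM in control, 31.2, 30.8 and 76.5 CPM in Gata4 KD and 62.2, 22.6 and 22.2 CPM in Tbx20 KD. In the 3 libraries with high Egr1, control b, Gata4 KD c and Tbx20 KD a, the level of Ptgs2 was 305, 324 and 329 CPM, whereas in the other 6 it was between 130.2 and 1081 CPM.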
